A study of Ovis aries with 2 samples.

Results

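The nuclear genes of oxidative phosphorylation are described here by complex, in ovarian granulosa cells from Hu sheep under short-term feed supplementation or restriction. As the values were deposited, their mRNAs were lower in the supplemented library than in the restricted one in all 5 complexes. The median log2 ratio was -0.39 over the members and -0.08 over all measured genes. Centring the libraries on granulosa markers shifts every log2 ratio by the same amount, and these medians then became 0.59 and 0.90. Members were gene names of the deposited table that carry the prefixes of the subunits (NDUFA, NDUFB, NDUFC, NDUFS or NDUFV with a number for complex I, SDHA to SDHD for II, UQCR names and CYC1 for III, COX5 to COX8 names for IV, ATP5 names for V). They came to 82 of 15490 named genes, with 37 names in complex I, 4 in II, 9 in III, 16 in IV and 16 in V, and they covered 115 of 22881 transcript entries. A gene was called measured where its FPKM (fragments per kilobase of transcript, scaled to library size) averaged 1 or more, which left 80 members. Just inside that limit were COX7A2P2, at 2.39 FPKM supplemented against 0.385 FPKM restricted, and COX6A2, with FPKM of 2.79 in the supplemented library only. Just outside was COX6B2, at 0.622 FPKM supplemented against 1.35 FPKM restricted, and COX8C had 0 reads in both libraries.

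Multiparous ewes aged 3-4 years were fed in the luteal phase, and granulosa cells were scraped from their dissected follicles over 2.5 mm for RNA sequencing. Supplemented ewes (8) were given 1560 g daily, which is 1.5 times maintenance. Restricted ewes (8) were given 520 g daily, which is 0.5 times maintenance. Each diet is represented by 1 library, and how many ewes gave RNA to it is not stated, so no spread between animals was measured and no test of the diets was possible. Sequencing depth was 9426679 reads for supplemented and 11299773 reads for restricted ewes. The members took 103233 of the supplemented reads (1.10%) and 144118 of the restricted reads (1.28%).

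Oxidative phosphorylation takes place in the inner mitochondrial membrane. Complexes I and II pass electrons from NADH and succinate to ubiquinone, complex III passes them on to cytochrome c and complex IV to oxygen, while protons are pumped by I, III and IV and flow back through complex V, the ATP synthase. Complexes I, III, IV and V hold subunits from both the nuclear and the mitochondrial genome, and complex II is wholly nuclear. In granulosa cells the same membrane also houses the first step of steroid synthesis.

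Ratios are log2((supplemented FPKM + 1) / (restricted FPKM + 1)), so a negative value means lower in the supplemented library, and changes of low genes are understated. Values are written supplemented or restricted for the library they come from. Folds compare scaled reads and carry Clopper-Pearson 95% intervals (exact). PCR copies are not independent molecules, so the intervals hold counting error and nothing else. The median log2 ratio was -0.42 in complex I, -0.26 in II, -0.46 in III, -0.41 in IV and -0.32 in V, beside -0.08 over all 11927 measured genes. Complex I ran from -0.98 to -0.01, III from -0.82 to -0.11 and V from -0.83 to -0.04, so the ranges of these complexes overlapped almost wholly. Summed over members, scaled reads were 1.35-fold lower in complex I (1.33 to 1.37), 1.27-fold in II (1.23 to 1.32), 1.35-fold in III (1.32 to 1.38), 1.39-fold in IV (1.35 to 1.42) and 1.35-fold in V (1.33 to 1.36). The interval of complex II lay below those of I, IV and V and overlapped that of III.

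**Figure D1:**
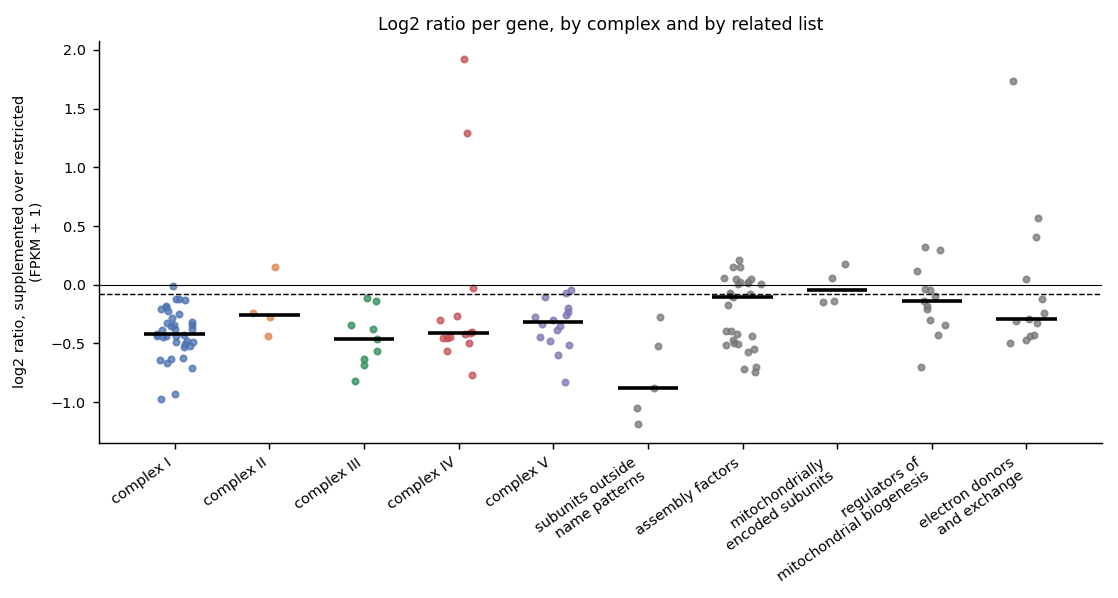
Each point is 1 measured gene, with its log2 ratio of FPKM + 1 (supplemented over restricted) on the vertical axis and complexes I to V, then 5 related lists, along the horizontal axis. Thick bars are medians (-0.42, -0.26, -0.46, -0.41 and -0.32 in complexes I to V as deposited), and the dashed line is the median of all measured genes (-0.08). When centred on granulosa markers, the medians of the 5 complexes and of all measured genes (0.90) lie above 0. The pair of high points in complex IV rests on 6 reads each in the supplemented library.

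Of the 80 measured members, 77 had a ratio below 0, against 57.8% of all measured genes. The counting interval lay wholly below 1 for 67 members (all genes 35.7%), wholly above 1 for 1 (all genes 20.4%), and held 1 for 12. Members are abundant, and abundant genes have narrow intervals. The 68 members averaging 50 FPKM or more had a median of -0.41, and the interval lay wholly below 1 in 61 of them (89.7%). Over all 1759 genes of that abundance the median was -0.29, and 67.1% had such an interval. Among the most abundant genes the gap was wider, with a median of -0.46 over the 22 members averaging 300 FPKM or more and -0.18 over all 258 such genes. The size of the differences was modest. None of the 80 members was at least 2-fold lower by the log2 ratio (all genes 2.85%), and 2 were at least 2-fold higher (all genes 5.87%), both on fewer than 20 reads. Those 2 passed the limit on mean FPKM only through the supplemented library, where they are high. Of the 80 members 13 had a read ratio at least 1.5-fold lower, a limit chosen after the values were seen (all genes 12.2%). The lower and upper quartiles of the log2 ratio were -0.49 and -0.25 over members, against -0.34 and 0.21 over all measured genes.

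The direction depended on the scaling between the libraries. As deposited and when centred on all measured genes (median -0.31) the members were lower, by share of all reads the median was -0.18 with 63 of 80 below 0 (all genes 38.9%), and when centred on granulosa markers it turned to 0.59. By share of all reads 49 members had an interval wholly below 1 (all genes 19.4%) and 4 wholly above 1 (all genes 35.3%). The contrast was smaller among genes averaging 50 FPKM or more. There the median by share was -0.20 over the 68 members and -0.08 over all 1759 genes. Ratios below 0 numbered 55 of the 68 and 1032 of the 1759, and intervals wholly below 1 numbered 45 and 761. On that scale none was at least 2-fold lower (all genes 1.82%) and 2 were at least 2-fold higher (all genes 7.56%). Scaling by share raised log2 ratios by up to 0.21, and the median of all genes became 0.11.

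Other cells of the follicle wall differed between the libraries. All 12 measured leukocyte markers of 13 listed passed the 2-fold size limit on the higher side of the supplemented library, with summed FPKM of 877 supplemented against 175 restricted. Of 9 stromal and smooth muscle markers 5 were at least 2-fold higher, while LUM was 1.48-fold lower (1.37 to 1.59) and PDGFRB 1.75-fold lower (1.54 to 1.98). Their sums were 1237 FPKM supplemented against 620.3 FPKM restricted. The 7 endothelial markers summed to 23.1 FPKM supplemented against 6.89 FPKM restricted. Only 3 of them were measured, of which 2 were at least 2-fold higher, and the rest averaged under 1 FPKM. The theca markers CYP17A1 and INSL3 summed to 209 FPKM supplemented against 101 FPKM restricted, and INSL3 made up most of this (200.5 supplemented, 93.7 restricted). CYP17A1 stood at 8.57 FPKM supplemented against 7.10 FPKM restricted (ratio 1.21, 1.003 to 1.46). Of 11 granulosa markers 5 were at least 2-fold lower, with sums of 11203 FPKM supplemented against 25398 FPKM restricted, and their median ratio was -0.98. Their log2 ratios ran from -1.72 in CYP19A1 to -0.18 in FSHR, which lay above the median of the members (-0.39). Values centred on these markers therefore depend on which of them are taken. INHA, which encodes the alpha chain of inhibin, had 2910 FPKM supplemented and 7412 FPKM restricted, so granulosa transcripts were abundant in both libraries. No marker of these lists was at 0 in either library. In bulk RNA, fewer cells of a type and less RNA per cell cannot be told apart, and the part of the cell mixture in the values of the respiratory genes was not tested.

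**Figure D2:**
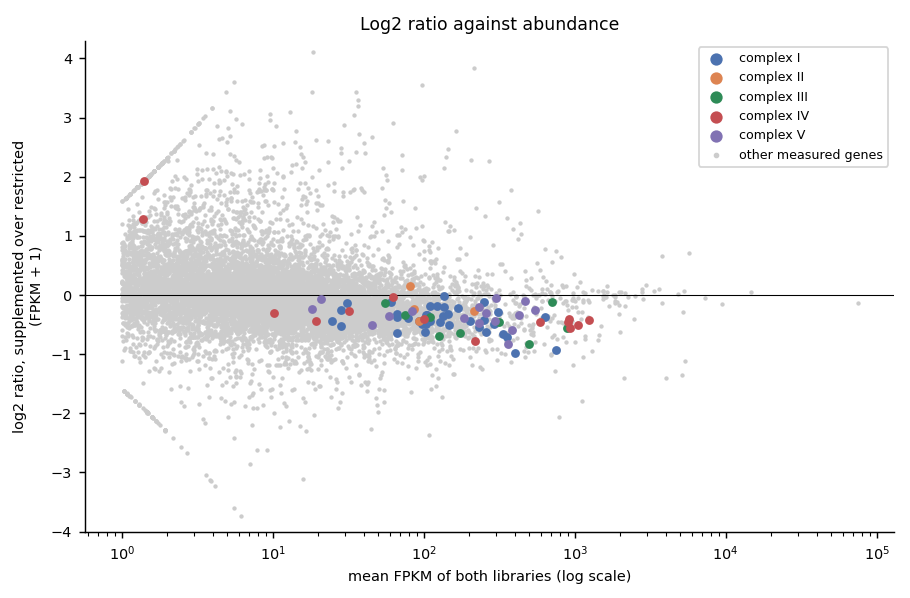
The log2 ratio of FPKM + 1 (supplemented over restricted) is plotted against the mean FPKM of both libraries on a log axis, with members coloured by complex and the other measured genes in grey. Members lie among the abundant genes in a band mostly between 0 and -1 as deposited, and the grey cloud at 50 FPKM or more also leans below 0 (median -0.29). When centred on granulosa markers, most members and the median of all measured genes lie above 0.

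Complex I takes electrons from NADH through a peripheral arm built around nuclear core subunits. All 37 names had a ratio below 0 (all genes 57.8%), and 33 had an interval wholly below 1. Such an interval was found in 35.7% of all measured genes and 67.1% of those averaging 50 FPKM or more. NDUFS7, which carries the last iron-sulphur cluster before quinone, stood at 109 FPKM supplemented against 149 FPKM restricted. NDUFS8, another iron-sulphur subunit, stood at 126 FPKM supplemented against 146 FPKM restricted. The NADH-binding subunit NDUFV1 stood at 68.5 FPKM supplemented against 89.7 FPKM restricted and its neighbour NDUFV2 at 119 FPKM supplemented against 152 FPKM restricted. NDUFS1, the large iron-sulphur subunit, stood at 26.0 FPKM supplemented against 31.1 FPKM restricted and NDUFS3 at 92.5 FPKM supplemented against 118 FPKM restricted. The intervals of these core subunits lay wholly below 1, while by share of all reads those of NDUFS8 and NDUFS1 held 1.

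The 28 accessory subunits of complex I, which surround the core, had a median of -0.43 and a range from -0.98 to -0.01. NDUFB1, a small subunit of the membrane arm, stood at 271 FPKM supplemented against 535 FPKM restricted (277 supplemented against 564 restricted reads, 1.97-fold lower, 1.70 to 2.28). Its entry spans 55737346 to 55748403 on chromosome 18 (Oar_v3.1). NDUFC1, another small subunit of the membrane arm, stood at 270.5 FPKM supplemented against 442 FPKM restricted. NDUFS4, whose loss causes Leigh syndrome in humans, stood at 260.1 FPKM supplemented against 413 FPKM restricted (1.59-fold lower, 1.50 to 1.68). By share of all reads the intervals of these 3 genes also lay wholly below 1, while centring on granulosa markers (median -0.98) left only NDUFB1 near 0. At the other end, NDUFB10 stood at 136 FPKM supplemented against 137 FPKM restricted (read ratio 0.992, 0.897 to 1.10). NDUFS6 stood at 240.0 FPKM supplemented against 261 FPKM restricted and NDUFB4 at 58.6 FPKM supplemented against 64.0 FPKM restricted, and the intervals of both held 1. As deposited, a difference of these 3 genes was not detectable at this depth. NDUFB10 lay at 0.20 by share of all reads with an interval wholly above 1, and the intervals of NDUFS6 and NDUFB4 still held 1. NDUFA1, a small subunit of the membrane arm, had the next highest mean FPKM of complex I names after NDUFA4, at 554 FPKM supplemented against 719 FPKM restricted (1.30-fold lower, 1.14 to 1.48).

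NDUFA4 carries a complex I name but is now known as a subunit of complex IV, and NDUFA4L2 is its paralogue, induced by hypoxia. NDUFA4 had the highest mean FPKM of both libraries under the complex I names, 517 in the supplemented against 986 in the restricted library, though NDUFA1 was above it in the supplemented library (874 supplemented against 1772 restricted reads, 1.96-fold lower, 1.80 to 2.13). NDUFA4L2 stood at 244 FPKM supplemented against 342 FPKM restricted (1.40-fold lower, 1.23 to 1.59). The interval of the first lay wholly beyond that of the second. With both counted in complex IV, the median of complex I was -0.38 and that of complex IV -0.43.

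**Figure D3:**
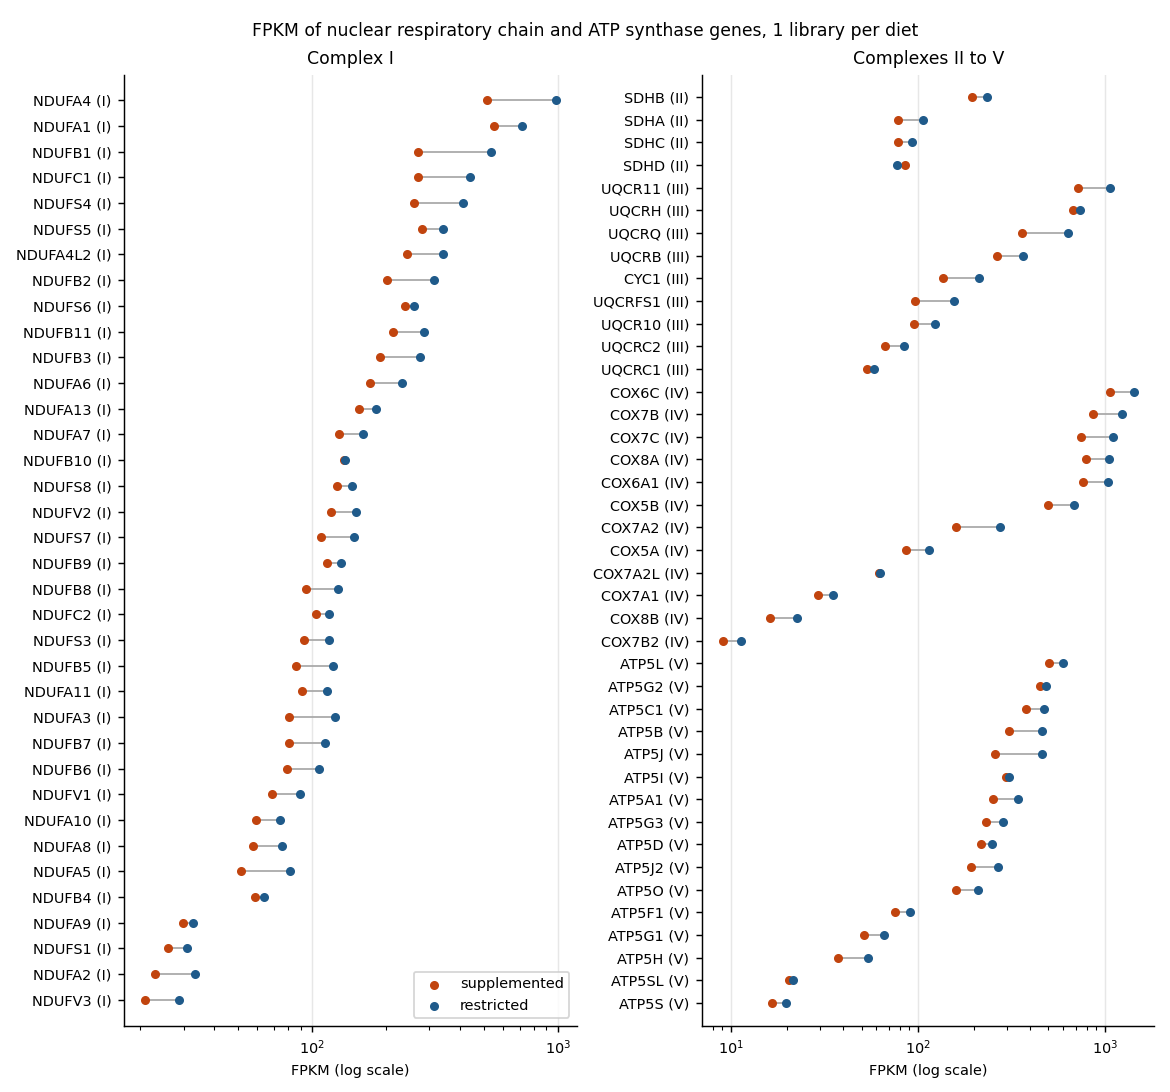
FPKM of each measured member on a log axis, with the supplemented library in orange and the restricted library in blue, ordered within each complex by mean FPKM. COX6A2 and COX7A2P2, with fewer than 20 reads over both libraries, are not drawn, nor is 1 member not reported here. As deposited, the orange point lies left of the blue one for every gene drawn except SDHD (85.9 FPKM supplemented against 77.3 FPKM restricted). Centring on granulosa markers, which shifts all genes alike, would turn that order for most.

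Complex II joins the citric acid cycle to the respiratory chain. SDHA, the flavoprotein that oxidises succinate, stood at 78.7 FPKM supplemented against 107 FPKM restricted (1.36-fold lower, 1.30 to 1.42). SDHB, its iron-sulphur partner, stood at 194 FPKM supplemented against 235 FPKM restricted (1.20-fold lower, 1.10 to 1.31). SDHC and SDHD anchor the complex in the membrane and went different ways. SDHC stood at 78.6 FPKM supplemented against 93.2 FPKM restricted (1.19-fold lower, 1.06 to 1.32). SDHD stood at 85.9 FPKM supplemented against 77.3 FPKM restricted, the only member with 20 or more reads and a ratio above 0 (0.15), and its interval held 1 (377 supplemented against 344 restricted reads, ratio 1.13, 0.978 to 1.32). The interval of SDHD overlapped none of the other 3. By share of all reads SDHD lay at 0.36 with an interval wholly above 1, and SDHA alone in complex II had one wholly below 1.

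Complex III had the lowest median of the complexes. Its electron-carrying nuclear subunits, cytochrome c1 and the Rieske iron-sulphur protein, were lower by similar amounts. CYC1, the gene for cytochrome c1, stood at 136 FPKM supplemented against 212 FPKM restricted (1.56-fold lower, 1.48 to 1.64). UQCRFS1, the Rieske protein, stood at 96.4 FPKM supplemented against 156 FPKM restricted (1.62-fold lower, 1.51 to 1.73). The core proteins, which resemble mitochondrial processing peptidases and carry no electrons, were closer to 0. UQCRC1 stood at 53.2 FPKM supplemented against 58.6 FPKM restricted (1.10-fold lower, 1.04 to 1.16) and UQCRC2 at 66.5 FPKM supplemented against 84.8 FPKM restricted (1.27-fold lower, 1.20 to 1.36). Summed reads of the electron carriers were 1.58-fold lower (1.52 to 1.65) and those of the core proteins 1.17-fold lower (1.12 to 1.22), so these counting intervals did not overlap.

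The small subunits of complex III spread most widely. UQCRQ stood at 359 FPKM supplemented against 636 FPKM restricted (481 supplemented against 881 restricted reads, 1.77-fold lower, 1.58 to 1.98), the lowest ratio of the complex. UQCR11 stood at 718 FPKM supplemented against 1062 FPKM restricted (1.47-fold lower, 1.27 to 1.72), UQCRB, which lies near the quinone site, at 266 FPKM supplemented against 365 FPKM restricted, and UQCR10 at 95.1 FPKM supplemented against 124 FPKM restricted. UQCRH, the acidic hinge protein that contacts cytochrome c1, stood at 678 FPKM supplemented against 734 FPKM restricted, and its interval reached 1 (1.08-fold lower, 0.999 to 1.17). By share of all reads 7 of the 9 members kept an interval wholly below 1 (all genes 19.4%). UQCRH and UQCRC1 then had log2 ratios of 0.10 and 0.07.

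Complex IV reduces oxygen, and its nuclear subunits surround a catalytic core made in the mitochondrion. The highest FPKM of all members stood here. COX6C stood at 1069.8 FPKM supplemented against 1432 FPKM restricted, COX7B at 871 supplemented against 1231 restricted and COX7C at 747 FPKM supplemented against 1105 FPKM restricted, which is 1.34-fold, 1.41-fold and 1.43-fold lower. COX8A stood at 793 FPKM supplemented against 1054 FPKM restricted and COX5B at 500.3 FPKM supplemented against 685 FPKM restricted, while COX5A was far less abundant, at 86.2 FPKM supplemented against 114 FPKM restricted. Of these 6 subunits all had ratios between -0.56 and -0.40, a narrow band. COX7A2, at 161 FPKM supplemented against 275 FPKM restricted, stood below it (1.74-fold lower, 1.59 to 1.91).

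Several subunits of complex IV exist in a general form and in a form of muscle, testis or another tissue. Where both forms had an entry, the general form led by FPKM. For COX8 this rests on the assigned lengths, since COX8A had 622 supplemented against 854 restricted reads and COX8B had 828 supplemented against 1187 restricted reads. COX6B1 and COX4I1 had no entry under those names, so COX6B2 and COX4I2 could not be compared with a general form. COX6A1 stood at 761 FPKM supplemented against 1043 FPKM restricted (1.37-fold lower, 1.30 to 1.45), while COX6A2, the heart and skeletal muscle form, had 6 supplemented against 0 restricted reads. Against a floor of 3 reads in the restricted library, COX6A2 was at least 2.07-fold higher. Its exact counting interval, which also takes the 6 reads as uncertain, started at a ratio of 1.22. With that gene at its bound the median of complex IV was -0.41. COX7A1, a muscle form of COX7A2, stood at 29.1 FPKM supplemented against 35.2 FPKM restricted, and its interval held 1 (116 supplemented against 145 restricted reads). COX8B, a muscle form of COX8A, stood at 16.3 FPKM supplemented against 22.6 FPKM restricted (1.38-fold lower, 1.27 to 1.52). COX6A2 passed the limit on mean FPKM only through the library where it is high. Markers of striated muscle differed among themselves. MB had 57 supplemented against 4 restricted reads, ACTA1 285 supplemented against 12 restricted and TNNT1 177 supplemented against 156 restricted. CKM went the other way, with 470 supplemented against 822 restricted reads. MYH7 (111 supplemented against 13 restricted reads) and TNNC1 (30 supplemented against 2 restricted) averaged under 1 FPKM. Of 6 such markers 4 were measured and 2 were at least 2-fold higher. Their summed FPKM was 55.5 supplemented against 50.7 restricted, of which CKM made up 21.1 supplemented and 35.7 restricted. The part of muscle cells in the COX6A2 value was not tested. COX7B2, a testis form, had 10 supplemented against 13 restricted reads. COX7A2P2, named as a pseudogene, had 6 supplemented against 1 restricted reads, a ratio of 6.21 with an interval of 0.754 to 286. It and COX6A2 were the members at least 2-fold higher by the log2 ratio. Like COX6A2, COX7A2P2 passed the limit on mean FPKM only through the supplemented library. COX7A2L, a factor of supercomplexes rather than a core subunit of complex IV, stood at 61.9 FPKM supplemented against 63.2 FPKM restricted (ratio 0.951, 0.807 to 1.12).

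**Figure D4:**
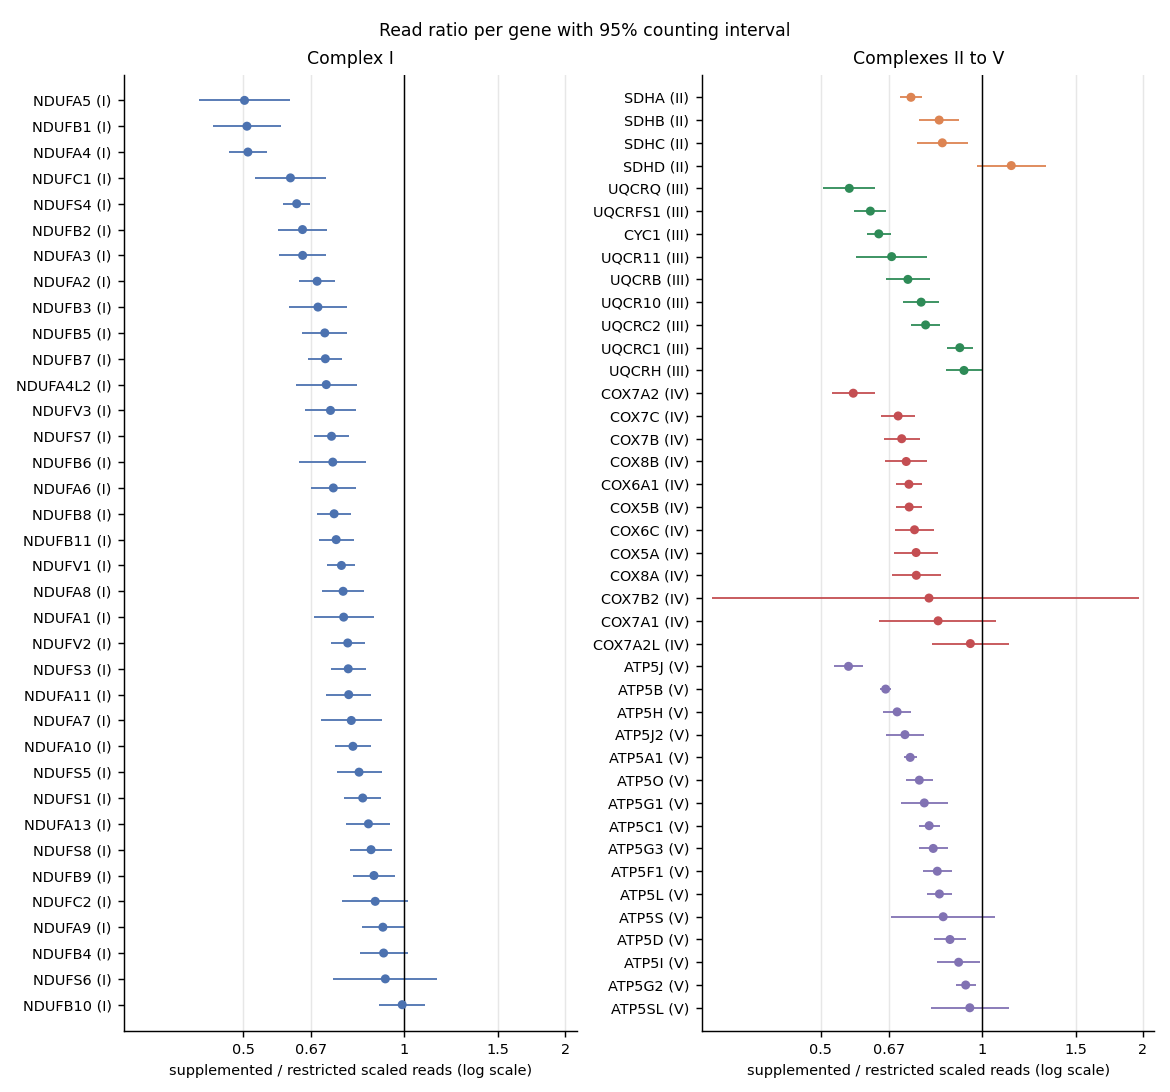
Read ratio (supplemented over restricted, log axis) of each measured member with at least 20 reads, with its 95% counting interval, sorted within complexes and coloured by complex, without 1 member not reported here. As deposited most intervals lie left of 1 (right of it when centred on granulosa markers, which shifts all genes alike). NDUFA4, NDUFB1 and NDUFA5 lie near 0.5, and the wide interval of COX7B2 rests on 10 supplemented against 13 restricted reads.

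Complex V makes ATP in a soluble head driven by a rotating ring in the membrane. The beta subunit ATP5B, which holds the catalytic sites, had the most reads of all members, 12009 supplemented against 18810 restricted, and stood at 306 FPKM supplemented against 463 FPKM restricted (1.51-fold lower, 1.48 to 1.55). Its partner in the head, the alpha subunit ATP5A1, stood at 253 FPKM supplemented against 344 FPKM restricted (1.36-fold lower, 1.32 to 1.40). The intervals of these head subunits did not overlap. The gamma and delta subunits of the central stalk, ATP5C1 and ATP5D, stood at 377 supplemented against 475 restricted and 218 FPKM supplemented against 250.3 FPKM restricted, 1.25-fold and 1.15-fold lower. The peripheral stalk holds the head still. Its coupling factor 6, ATP5J, stood at 259.9 FPKM supplemented against 462 FPKM restricted (1499 supplemented against 2755 restricted reads, 1.78-fold lower, 1.67 to 1.89), the lowest ratio of complex V. The other stalk genes were closer to the rest. ATP5H stood at 37.6 FPKM supplemented against 54.1 FPKM restricted (1.44-fold lower, 1.36 to 1.53), ATP5O at 161 supplemented against 210.5 restricted and ATP5F1 at 75.5 FPKM supplemented against 91.4 FPKM restricted.

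The c subunit of the rotating ring is made from 3 genes that encode the same mature protein. ATP5G2 stood at 451 FPKM supplemented against 484 FPKM restricted (1.07-fold lower, 1.03 to 1.12), ATP5G3 at 230.4 supplemented against 284 restricted (1.23-fold, 1.16 to 1.31) and ATP5G1 at 51.6 FPKM supplemented against 66.1 FPKM restricted (1.28-fold, 1.16 to 1.42). ATP5G2 was the most abundant of them in both libraries and had an interval nearer to 1 than those of the other two. By share of all reads it lay above 0, at 0.11. Summed reads of the ring genes were 1.14-fold lower (1.10 to 1.18), against 1.41-fold (1.38 to 1.43) for the head and central stalk and 1.42-fold (1.38 to 1.46) for the peripheral stalk. These sums lean on ATP5G2 (4039 of 6543 supplemented ring reads) and ATP5B (12009 of 24967 for the head and central stalk). By gene these groups overlapped, with median log2 ratios of -0.30 in the ring, -0.39 in the head and central stalk and -0.45 in the peripheral stalk. Of the small membrane subunits e, f and g, ATP5L stood at 501 FPKM supplemented against 600.0 FPKM restricted, ATP5J2 at 193 supplemented against 269 restricted and ATP5I at 297 FPKM supplemented against 306 FPKM restricted. ATP5S and ATP5SL share the name stem but are not structural subunits of the ATP synthase. They stood at 16.7 supplemented against 19.7 restricted and 20.5 FPKM supplemented against 21.6 FPKM restricted, and both intervals held 1.

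Of the 82 names, 21 had more than 1 entry, 54 entries in all, and 11 of the 115 entries were at 0 in both libraries. Near-identical copies can share reads, so the split between such entries is uncertain. In 12 names at least 2 entries had 20 or more reads each over both libraries, and in 10 of these names those entries had ratios of the same sign. NDUFA4 had 623 supplemented against 1217 restricted reads on chromosome 4 (19024265 to 19031348), and a second locus of 462 bases on chromosome X had 238 supplemented against 532 restricted reads. These entries were 1.89-fold (1.71 to 2.08) and 2.16-fold (1.85 to 2.53) lower. Whether the short locus has reads of its own or shares those of the longer one was not tested. The reads of COX7A2 all lay in short loci, with 663 supplemented against 1203 restricted reads in a locus of 458 bases and 59 supplemented against 97 restricted in one of 249 bases, both on chromosome 14. COX7C had 885 supplemented against 1280 restricted reads in a locus of 438 bases on chromosome 15 and 328 supplemented against 508 restricted reads on chromosome 5, at 1.40-fold and 1.50-fold lower.

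Names whose entries differed were fewer. ATP5I was 1.24-fold lower on chromosome 6 (553 supplemented against 710 restricted reads, 1.11 to 1.39), but an entry of 278 bases on chromosome 2 had 299 supplemented against 265 restricted reads, a ratio of 1.17 (0.987 to 1.38). COX7A2L had 128 supplemented against 128 restricted reads at one locus and 156 supplemented against 181 restricted at the other. NDUFA5 was 1.50-fold lower on chromosome 4 (112 supplemented against 174 restricted reads, 1.18 to 1.92) and 3.20-fold lower (45 supplemented against 149 restricted reads, 2.28 to 4.57) in an entry on chromosome 2 that spans 127957 bases. The summed reads of NDUFA5 were therefore 1.99-fold lower, while its log2 ratio of FPKM was -0.64, since the second entry adds little FPKM. SDHD had a ratio above 1 at both entries, 305 supplemented against 272 restricted reads and 72 supplemented against 72 restricted reads, and the second shows only the scaling.

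**Figure D5:**
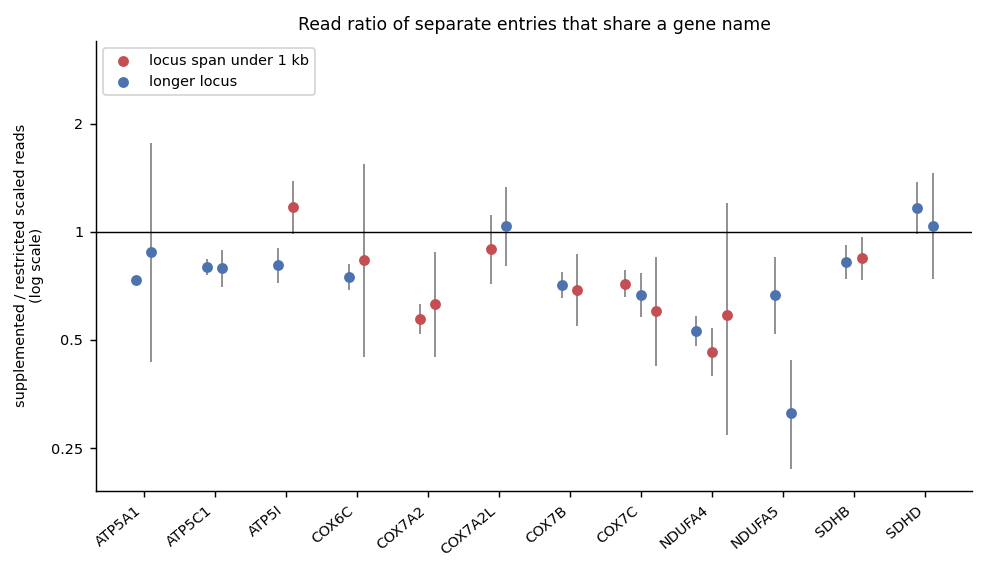
Read ratio (supplemented over restricted, log axis) of separate entries that share a gene name, for the 12 names with at least 2 entries of 20 or more reads, with 95% counting intervals. Red points are loci under 1 kb and blue points longer loci. Entries of 1 name mostly lie together, and ATP5I and NDUFA5 show the widest gaps.

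FPKM depends on the length that the authors assigned to an entry. The number of scaled reads behind 1 FPKM ran from 0.400 in UQCR11 to 51.7 in COX8B, so the order of levels between members rests on these lengths. UQCR11, for example, stood at 718 FPKM supplemented against 1062 FPKM restricted on 283 supplemented against 432 restricted reads, while ATP5H stood at 37.6 FPKM supplemented against 54.1 FPKM restricted on 1829 supplemented against 2727 restricted reads. Across the 77 members with at least 100 reads, log2 FPKM of both libraries correlated with Pearson's r = 0.990 and Spearman's rho = 0.990, so the order of the members was nearly the same in both. The log2 ratio went with mean FPKM at rho = -0.31 across these members and at rho = -0.31 across 10086 genes. These are descriptions across genes that share the same libraries.

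Genes tied to the same pathway, from lists that do not use the name patterns, went further or less far than the members. Of 8 listed subunits and carriers outside the patterns 5 had an entry, and all 5 intervals lay wholly below 1 as deposited (all genes 35.7%). CYCS, cytochrome c, the carrier between complexes III and IV, stood at 127 FPKM supplemented against 291 FPKM restricted (366 supplemented against 868 restricted reads over 8 entries, 2.29-fold lower, 2.03 to 2.60). USMG5, a small membrane protein of the ATP synthase, stood at 305 FPKM supplemented against 632 FPKM restricted (2.07-fold lower, 1.68 to 2.56). The split of reads among the entries of CYCS, and of USMG5, which has 4, is uncertain. COX4I2, the form of subunit 4 found in lung and under hypoxia, stood at 13.0 FPKM supplemented against 24.8 FPKM restricted (1.91-fold lower, 1.56 to 2.34), and ATPIF1, an inhibitor of ATP hydrolysis by complex V, at 70.1 FPKM supplemented against 101 FPKM restricted. CYCS and USMG5 passed the 2-fold size limit as deposited, and by share of all reads neither did, at -0.98 and -0.84.

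Of 49 listed assembly factors 29 had an entry, with a median of -0.10, near that of all measured genes. Their intervals lay wholly below 1 in 12 (41.4%, against 35.7% of all measured genes), wholly above 1 in 1 (all genes 20.4%) and held 1 in 16. Scaled by share, 9 lay wholly below 1 (all genes 19.4%) and 4 wholly above 1 (all genes 35.3%). NDUFAF2, a complex I assembly factor, stood at 9.26 FPKM supplemented against 16.2 FPKM restricted (1.74-fold lower, 1.27 to 2.42). The complex IV factors COX16, SCO2 and SURF1 stood at 13.99 supplemented against 23.7 restricted, 16.8 supplemented against 27.8 restricted and 27.0 FPKM supplemented against 40.6 FPKM restricted. Regulators of mitochondrial gene expression had a median of -0.14 over 13 measured of 17 listed, and 3 of the 13 had a ratio above 0. Their intervals lay wholly below 1 in 4 (30.8%, against 35.7% of all measured genes), the 4 named next, and held 1 in 9. By share of all reads their median was 0.05, with 5 of 13 below 0 (all genes 38.9%). TFB2M, a mitochondrial transcription factor, stood at 4.58 FPKM supplemented against 8.06 FPKM restricted (1.78-fold lower, 1.38 to 2.31). PPRC1, a coactivator, stood at 8.32 FPKM supplemented against 11.5 FPKM restricted, GABPB1, a chain of the transcription factor GABP, at 11.5 supplemented against 14.8 restricted and the transcription factor YY1 at 46.9 FPKM supplemented against 58.1 FPKM restricted. PPARGC1A, a coactivator of mitochondrial biogenesis, had 3 supplemented against 1 restricted reads, so no difference was detectable at this depth.

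Subunits encoded by the mitochondrial genome were split in direction. Of 13 listed, 4 had an entry, with a median of -0.04. MT-CO3 stood at 71266 FPKM supplemented against 78360 FPKM restricted and MT-ND4L at 9045 supplemented against 10021 restricted, 1.10-fold and 1.11-fold lower. MT-CO1 stood at 14923 FPKM supplemented against 14364 FPKM restricted and MT-ND1 at 3138 supplemented against 2783 restricted (ratio 1.13, 1.11 to 1.15). By share of all reads all 4 lay above 0. Their entries are few and MT-ND1 has 5 of them, so how far reads were divided among copies was not tested. Electron donors and exchange proteins had a median of -0.29 over 13 genes, with 8 intervals wholly below 1 (all genes 35.7%) and 4 wholly above (all genes 20.4%). Over all genes averaging 50 FPKM or more, as several of these do, the median was also -0.29 and 67.1% lay wholly below 1. UCP2, an uncoupling protein also abundant in macrophages, stood at 62.3 FPKM supplemented against 18.0 FPKM restricted (3.46-fold higher, 3.04 to 3.95), in the library where all 12 measured leukocyte markers were higher, and the part of leukocytes in that value was not tested. The channels VDAC1 and VDAC2 stood at 10.8 supplemented against 15.6 restricted and 197 FPKM supplemented against 273 FPKM restricted, and SLC25A3, the phosphate carrier, at 222 FPKM supplemented against 302 FPKM restricted.

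Of all 22881 entries, 170 are called at q below 0.05 in the authors' deposited table, and 0 of the 115 member entries are. With calls this rare, their absence among 115 entries says little about the members. The smallest q among member entries was 0.598 in that table, for the chromosome 2 entry of NDUFA5. Its p and q values compare the 2 libraries, not the diets.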

How the data were processed

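The submitters' processing notes name TopHat, Cuffdiff and the build Oar_v3.1 and give no versions or annotation. The table lists transcript entries. Beside FPKM the authors deposited a signal column per library, whose values behave as read counts divided by 1 factor per library (by the steps between low values, a read weighs 1.02 for supplemented and 0.983 for restricted). Undoing these factors left values within 0.02 of a whole number in 98.5% of 17628 supplemented entries above 0 and 98.3% of 17364 restricted ones. The FPKM columns are the authors' own, per the file headers. The authors' log2 fold changes, p-values and q-values were deposited in the same table. The p-values and q-values were not recomputed. Per entry, log2 ratios from either unit lay within 0.00638 of each other. Positions were taken from the table and are given 1-based.

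Scaled reads and FPKM were summed per gene name, and 4419 unnamed entries were kept apart. With 1 library per group no count model was fitted. Intervals were computed with scipy 1.17.1 and checked on simulated data. Named genes were all members of complexes II and III, the most abundant and most extreme members of I, IV and V, core subunits, tissue forms, members that are no subunit, and up to 4 genes per related list. INHA, CYP19A1, FSHR, LUM, PDGFRB, PPARGC1A and single muscle markers were named after their values were seen. So were COX5A, COX5B, NDUFS4, NDUFA5, ATP5A1, ATP5D, ATP5F1, ATP5J2 and ATP5O. Members and lists were chosen with earlier results of these data known. Alternatives covered pseudocounts, filters, scalings, entries per name and membership. A filter at a mean FPKM of 50 and moving NDUFA4 and NDUFA4L2 to complex IV were added after seeing the data. Listed genes without an entry were not analysed here, and the values of 1 member are not reported here.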

Additional observations from a re-analysis of the deposited data

How the results depend on the processing

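With 1 library per diet every value describes these libraries. Scaled to the share of all reads, the median log2 ratio was -0.18 over all members, -0.21 in complex I, -0.048 in II, -0.25 in III, -0.20 in IV and -0.10 in V, while the median of all measured genes reversed to 0.11. Centred on 11 granulosa markers, whose own median was -0.98, it reversed to 0.59 over all members and to 0.56, 0.72, 0.52, 0.56 and 0.66 in complexes I to V, and to 0.90 over all measured genes, by the construction of that scaling. Members with an interval wholly below 1 numbered 67 as deposited (all genes 35.7%) and 0 when centred on granulosa markers. Members wholly above 1 numbered 1 as deposited (all genes 20.4%) and 4 by share of all reads (all genes 35.3%). They numbered 2 when centred on all measured genes, 75 when centred on granulosa markers and 0 among genes averaging 5 FPKM or more. Shares over all genes are not given for the centred scalings or that filter, so these counts cannot be set against other genes. The 2 members at least 2-fold higher became 0 with a pseudocount of 5 or that same filter, and 1 without members that are no subunit. No member was at least 2-fold lower in any of the alternatives run. A further 84 values of members under these and other alternatives kept their direction, with medians inside the counting interval of the middle member and counts within 1.5 times. No paired analysis was possible because each diet has 1 library. Members with few reads, such as COX7B2, COX6A2 and COX7A2P2, are limited by depth.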
